A study of Mus musculus with 20 samples.

Results

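Peroxisomal β-oxidation was followed at the chromatin of 9 mouse liver genes, Abcd3, Ehhadh, Hsd17b4, Acaa1a, Acaa1b, Ech1, Eci2, Crot and Pex11a, out of 21887 protein-coding genes in the gene table. The rule that names the genes is their pathway and uses no measured value, but the set was chosen with earlier results of these data known. Its chromatin was read from the authors' consensus intervals, 1 set of regions per mark for all libraries, with a midpoint in the gene body or within 10000 bases of it. By this rule the genes had 57 of 65776 H3K27ac intervals, 109 of 103014 H3K4me1 intervals and 84 of 46568 H3K9ac intervals. H3K27ac is an acetylation of histone H3 found at active promoters and enhancers, H3K4me1 is a methylation found at enhancers, and H3K9ac is an acetylation of active promoters.

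Livers came from 9-week-old male C57BL/6 mice fasted for 24 hours, and each was profiled by chromatin immunoprecipitation and sequencing (ChIP-seq). Mice of 4 genotypes were used, namely wild type (WT), a liver knockout of Cpt2 (Cpt2 KO, labelled L-/-), a knockout of Ppara (Ppara KO, labelled -/-) and the double knockout (DKO), which lacks Cpt2 in the liver and carries the Ppara knockout. Cpt2 encodes the inner-membrane carnitine palmitoyltransferase of mitochondria, and Ppara encodes a nuclear receptor activated by fatty acids. The Cre driver of the Cpt2 deletion is not given in the sources used here. H3K27ac and H3K4me1 were measured in 2 replicates per genotype. Each replicate is called a liver here, although the labels do not say that replicates are separate mice. Thus 4 Ppara-intact livers (WT and Cpt2 KO) were set against 4 Ppara-null livers (Ppara KO and DKO), and H3K9ac was measured in 1 WT and 1 Cpt2 KO liver.

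Peroxisomes shorten fatty acids that are too long or too branched for mitochondria. Acyl-CoAs enter through transporters such as ABCD3, are oxidised, then hydrated and dehydrogenated by a bifunctional enzyme, and cleaved by a thiolase. Shortened products leave as carnitine esters and are finished in mitochondria. In rodent liver the pathway is known as a classic set of targets of PPARα, which pairs with RXR on repeats of a half-site and is active in fasting.

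Across both marks the 16 H3K27ac and H3K4me1 peak lists held 44454 to 48929 and 61189 to 72151 peaks. The peak lists hold no read totals, and depth is therefore unknown. H3K27ac peaks covered 42.1 to 47.8 Mb in Ppara-intact and 42.0 to 47.4 Mb in Ppara-null libraries, while H3K4me1 peaks covered 41.4 to 53.5 Mb and 38.8 to 53.3 Mb. At the targeted genes, 1 H3K27ac interval near Cpt2 was called in all 4 Cpt2-intact livers and in no Cpt2-null liver. Near Ppara, 2 H3K4me1 intervals were called in all 4 Ppara-intact livers and in no Ppara-null liver, and 1 H3K27ac interval did so in each direction. All 6 hepatocyte markers carried H3K27ac in all 8 libraries, with a summed fold of 91.2 to 124 in Ppara-intact and 113 to 171 in Ppara-null livers. Of 20 markers of other liver cells, 6 were called in all libraries and 8 in none, among them all 4 bile duct markers, and their summed fold ran from 65.5 to 135 in Ppara-intact and from 77.1 to 141 in Ppara-null livers. Split by Cpt2 instead, folds of Clec4f, Stab2, Clec4g, Oit3 and Dcn were higher in each Cpt2-null than in each Cpt2-intact library, and those of Kdr overlapped. Cd5l, Vsig4, Adgre1 and Reln were called in Cpt2-null libraries only, while Lrat and Ptprc were also called in Cpt2-intact ones. Over all H3K27ac intervals called in all 8 libraries, 17.8% were separated with Cpt2-null higher and 1.48% with it lower. The part of cell makeup in the results below was not tested.

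The labels number the replicates without saying that they are separate mice, so the p-values below measure the spread between libraries, which may be technical. Numbers in the peak names are the same for both marks of a genotype and replicate, so the marks are not independent livers. Those numbers also run in one range for Ppara-intact and in another for Ppara-null livers. What the numbers stand for is not given in the sources used here, and a difference between sets of mice cannot be told apart from Ppara genotype.

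Promoter sequence was looked up for the start sites that the H3K27ac results turn on. RefSeq promoter windows (build GRCm38.p6, the assembly named mm10) matched 8 of the 9 genes, all but Hsd17b4. Shown are the 250 bases before 4 start sites, 5′ to 3′ on the gene's strand, with each CG pair in capitals. Acaa1b had the largest difference in H3K27ac, Ehhadh and Pex11a kept a peak at the start with a narrower domain around it, and Abcd3 had the highest fold.
Acaa1b, chr9:119157094-119157343, minus strand: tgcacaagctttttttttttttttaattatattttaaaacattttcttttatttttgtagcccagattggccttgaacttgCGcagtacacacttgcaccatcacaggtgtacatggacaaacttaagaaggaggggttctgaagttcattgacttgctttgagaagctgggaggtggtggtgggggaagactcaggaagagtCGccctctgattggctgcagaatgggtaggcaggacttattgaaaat
Ehhadh, chr16:21787835-21788084, minus strand: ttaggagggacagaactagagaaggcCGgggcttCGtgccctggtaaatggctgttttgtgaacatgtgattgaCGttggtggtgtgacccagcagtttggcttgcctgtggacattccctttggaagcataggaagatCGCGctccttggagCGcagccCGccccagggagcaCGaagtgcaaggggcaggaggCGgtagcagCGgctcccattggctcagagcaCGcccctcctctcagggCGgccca
Pex11a, chr7:79743132-79743381, minus strand: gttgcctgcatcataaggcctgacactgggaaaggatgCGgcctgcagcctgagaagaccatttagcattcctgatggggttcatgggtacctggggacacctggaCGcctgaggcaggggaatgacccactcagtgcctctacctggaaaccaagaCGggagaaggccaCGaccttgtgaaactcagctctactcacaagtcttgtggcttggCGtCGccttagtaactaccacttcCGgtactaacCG
Abcd3, chr3:121815303-121815552, minus strand: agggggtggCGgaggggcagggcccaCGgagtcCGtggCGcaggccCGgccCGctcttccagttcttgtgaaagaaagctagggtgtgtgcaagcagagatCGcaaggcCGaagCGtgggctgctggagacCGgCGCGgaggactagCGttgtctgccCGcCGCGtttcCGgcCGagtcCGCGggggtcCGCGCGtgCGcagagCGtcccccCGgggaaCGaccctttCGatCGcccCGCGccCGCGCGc
The Acaa1b window had 2 CG pairs and 41.6% G and C, the lowest among the 8 genes, whereas the Abcd3 window shown had 34 CG pairs and 72.0%, against a median of 52.4% over 32851 windows. A second Abcd3 window in the table, inside the gene body and not shown, had 35 CG pairs and 75.2%. Acaa1a and Acaa1b encode closely related thiolases and lie on the same chromosome with other genes between them. Their windows were identical at 59.2% of bases in an alignment, within the 51.6% to 60.4% of the other pairs of member genes without Abcd3. Pairs with Abcd3 used its second window, inside the gene body, and ran from 50.4% to 64.4%. How the authors treated reads that match both paralogues is not given in the sources used here, so their values may not be fully separate.

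The half-site AGGTCA was searched on both strands of each window, from 250 bases before the start to 50 after it, together with the direct repeat AGGTCANAGGTCA and the looser AGGNCANAGGNCA. None of these was found in the windows of the 8 genes. Over all windows 16.3% held the half-site, 0.0396% the exact repeat and 0.381% the looser one. A window without a match says only that these letters are not in it, and the peaks themselves were not searched, since genome sequence was not used here.

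H3K27ac was lower at most tested intervals of the chosen genes in livers without Ppara. Of 57 member intervals, 16 were called in all 8 libraries and could be tested with limma on centred log2 fold enrichment, a peak's height over input as the authors' caller gave it. Of these, 11 were lower without Ppara at an adjusted p under 0.05, and 0 were higher. Over all 18281 tested intervals 4.15% were lower and 3.19% higher. All 16 log2 differences were negative, with a median of -0.90 against -0.01 over all tested intervals. The lower intervals belonged to 6 genes, Abcd3, Hsd17b4, Acaa1a, Acaa1b, Ech1 and Eci2, while Ehhadh, Crot and Pex11a had none. In bulk liver, fewer cells with the mark and less mark per cell cannot be told apart.

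**Figure D1:**
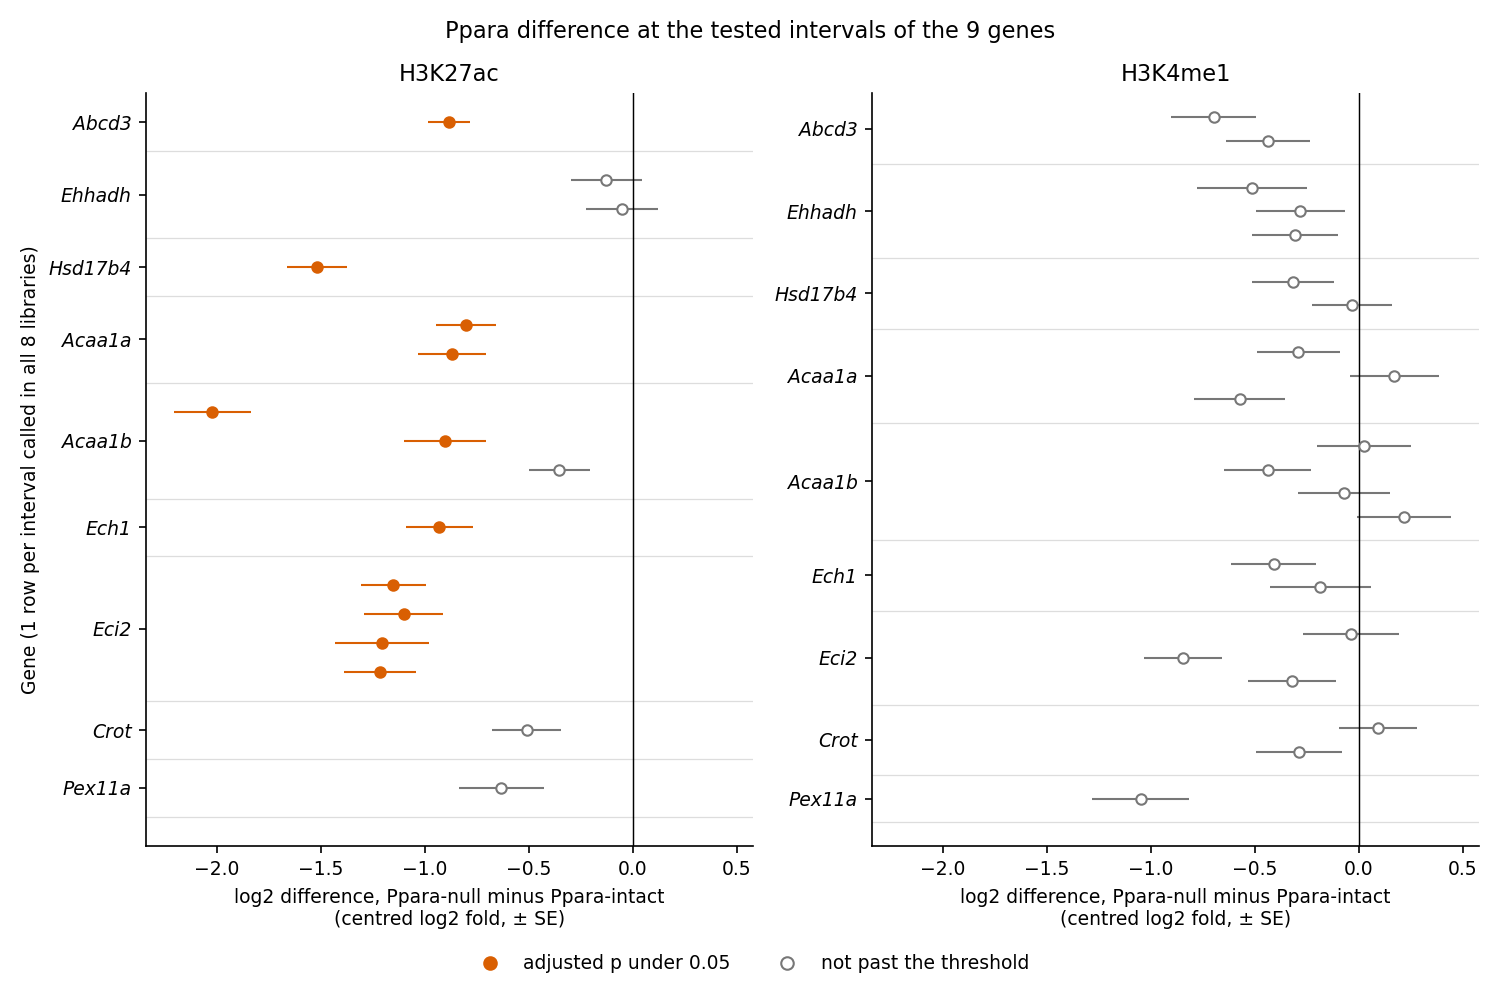
Log2 difference of fold enrichment between Ppara-null and Ppara-intact livers (x axis, centred log2 fold, bars are SE) at each interval called in all 8 libraries, grouped by gene (y axis), for H3K27ac (left, 16 intervals) and H3K4me1 (right, 22 intervals). All 16 H3K27ac differences lie below 0 and 11 pass an adjusted p of 0.05, while no H3K4me1 difference does.

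Entry into the peroxisome was represented by Abcd3, the half-transporter also called PMP70. Its start-site interval (mm10, chromosome 3, 121809863 to 121816444) had the highest H3K27ac folds of the set, at 38.2 and 49.5 in the WT livers, 51.0 and 48.2 in the Cpt2 KO livers, 25.2 and 26.6 in the Ppara KO livers and 24.0 and 27.2 in the DKO livers. No Ppara-null liver reached the lowest Ppara-intact liver. The log2 difference was -0.88 (SE 0.10, limma adjusted p = 0.000414). Every Ppara-null liver still had a peak of at least 24.0-fold here.

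Among the oxidation enzymes, Hsd17b4 and Acaa1b changed most. Hsd17b4 encodes the D-bifunctional enzyme, which hydrates and dehydrogenates branched and very long acyl-CoAs. Its strongest interval (chromosome 18, 50126596 to 50135452) overlaps the first annotated base of the gene body at its low-coordinate end. Its folds were 25.5 and 28.8 in the WT livers, 46.3 and 42.1 in the Cpt2 KO livers, 10.8 and 14.0 in the Ppara KO livers and 13.5 and 11.2 in the DKO livers. The 4 genotypes formed 3 levels, with Cpt2 KO above WT and both Ppara-null groups together below. The difference between Ppara-null and Ppara-intact livers was -1.52 (SE 0.14, adjusted p = 0.00021), and that between Cpt2 KO and WT, 0.48, missed the threshold (adjusted p = 0.128).

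Acaa1b encodes one of the peroxisomal 3-ketoacyl-CoA thiolases. The interval over its start site (chromosome 9, 119151863 to 119160654) had H3K27ac folds that were 22.0 and 33.8 in the WT livers, 37.4 and 32.0 in the Cpt2 KO livers, 7.54 and 8.32 in the Ppara KO livers and 9.18 and 6.17 in the DKO livers. All Ppara-null values were below 10, and all Ppara-intact values were above 20. With a log2 difference of -2.02 (SE 0.19, adjusted p = 0.00021), this was the largest difference among the 16 intervals. The next interval upstream (119160872 to 119161792) was also lower, by -0.91 (SE 0.20, adjusted p = 0.0155), but adjusted p was 0.0816 without Cpt2 KO replicate 2 and 0.058 without Ppara KO replicate 1. Farther upstream, the interval at 119163922 to 119166674 had the highest mean log2 fold of the gene and overlapped between groups, with 19.6 and 20.6 in the WT livers, 32.7 and 35.5 in the Cpt2 KO livers, 17.1 and 24.8 in the Ppara KO livers and 23.0 and 19.6 in the DKO livers. Its difference was -0.35 (SE 0.15, adjusted p = 0.169). The 3 intervals of Acaa1b thus differed in size of change with distance from the start, from within the gene to 8205 bases from its body.

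Acaa1a encodes the other thiolase of the pair. Over its start site (119339322 to 119344859) H3K27ac folds were 20.6 and 30.0 in the WT livers, 32.2 and 27.6 in the Cpt2 KO livers, 13.3 and 15.0 in the Ppara KO livers and 14.6 and 22.2 in the DKO livers. One DKO liver, at 22.2, lay above one WT liver, so the groups overlapped, yet the modelled difference of -0.80 (SE 0.15) passed (adjusted p = 0.00609). A separate interval beyond the gene (119357207 to 119358656), whose middle lies in the body of Xylb, was lower, at -0.87 (SE 0.17, adjusted p = 0.00789) with no overlap.

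Ehhadh, the L-bifunctional enzyme that does for straight-chain acyl-CoAs what Hsd17b4 does for branched ones, did not pass the test in fold. The interval over its start (chromosome 16, 21785928 to 21791773) had H3K27ac folds that were 10.4 and 14.1 in the WT livers, 17.5 and 14.0 in the Cpt2 KO livers, 9.86 and 13.5 in the Ppara KO livers and 12.0 and 17.4 in the DKO livers. Values of the groups were interleaved, and the difference was -0.13 (SE 0.17, adjusted p = 0.705). Inside the gene, an interval at 21784790 to 21785613, picked after its values were seen, was called in 3 of 4 Ppara-intact livers at folds of 7.0 to 12.5 and in no Ppara-null liver.

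Auxiliary enzymes move double bonds of unsaturated chains so that oxidation can proceed. Ech1, a dienoyl-CoA isomerase found in peroxisomes and mitochondria, had folds at its start (chromosome 7, 28822168 to 28827642) of 28.0 and 32.1 in the WT livers, 27.5 and 38.4 in the Cpt2 KO livers, 15.5 and 13.4 in the Ppara KO livers and 20.8 and 18.1 in the DKO livers. Each Ppara-null liver lay below each Ppara-intact liver, at a log2 difference of -0.93 (SE 0.16, adjusted p = 0.00509). Eci2, an enoyl-CoA isomerase, was the only gene with 4 tested intervals, and all 4 were lower. At its start site (chromosome 13, 34990678 to 34996469) folds were 21.9 and 27.3 in the WT livers, 22.4 and 21.2 in the Cpt2 KO livers, 7.13 and 10.2 in the Ppara KO livers and 11.2 and 15.4 in the DKO livers, a difference of -1.15 (SE 0.16, adjusted p = 0.00106). The other 3 lay at 35013915 to 35027215, between that start and the upper end of the annotated gene body, and were lower, at -1.10 to -1.22, with adjusted p from 0.00152 to 0.00768. All 4 differences along Eci2 thus lay between -1.10 and -1.22.

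Crot makes carnitine esters of medium-chain acyl-CoAs, the form in which products leave the peroxisome. Folds at its start (chromosome 5, 8994562 to 9000935) were 19.0 and 17.7 in the WT livers, 16.5 and 15.7 in the Cpt2 KO livers, 9.14 and 13.8 in the Ppara KO livers and 11.8 and 15.5 in the DKO livers. The highest null liver, at 15.5, fell just short of the lowest Ppara-intact liver, at 15.7, and the difference of -0.51 (SE 0.17) missed the threshold (adjusted p = 0.0803). Pex11a encodes a membrane protein that drives elongation and division of peroxisomes. Its single interval (chromosome 7, 79733820 to 79743376) had H3K27ac folds that were 25.3 and 17.8 in the WT livers, 28.4 and 31.4 in the Cpt2 KO livers, 17.7 and 10.7 in the Ppara KO livers and 21.0 and 19.1 in the DKO livers. These overlapped, with a difference of -0.63 (SE 0.21, adjusted p = 0.0803). Without Ppara KO replicate 1 the adjusted p at Pex11a was 0.0394.

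Covered length of the acetylated domains separated the groups at more genes than height did. For each start-site interval (for Hsd17b4 the strongest one), the bases under peaks were summed per library. In all 9 genes every Ppara-null liver had fewer covered bases than every Ppara-intact liver, whereas folds were separated in 6 of 9. Over all 18281 intervals called in every library, covered bases were separated with null lower in 4.4% and folds in 3.28%, with null higher in 4.68% and 2.58%, and the median of null over intact covered bases was 100.1%. Among the 9 genes the mean in Ppara-null livers was 16.5% of that in Ppara-intact livers at Pex11a, 19.9% at Acaa1b, 33.4% at Abcd3, 33.5% at Ehhadh, 35.8% at Hsd17b4, 43.8% at Eci2, 53.3% at Crot, 77.8% at Ech1 and 81.1% at Acaa1a. A covered base is one inside a called peak, so covered length depends on height as well as on extent.

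**Figure D2:**
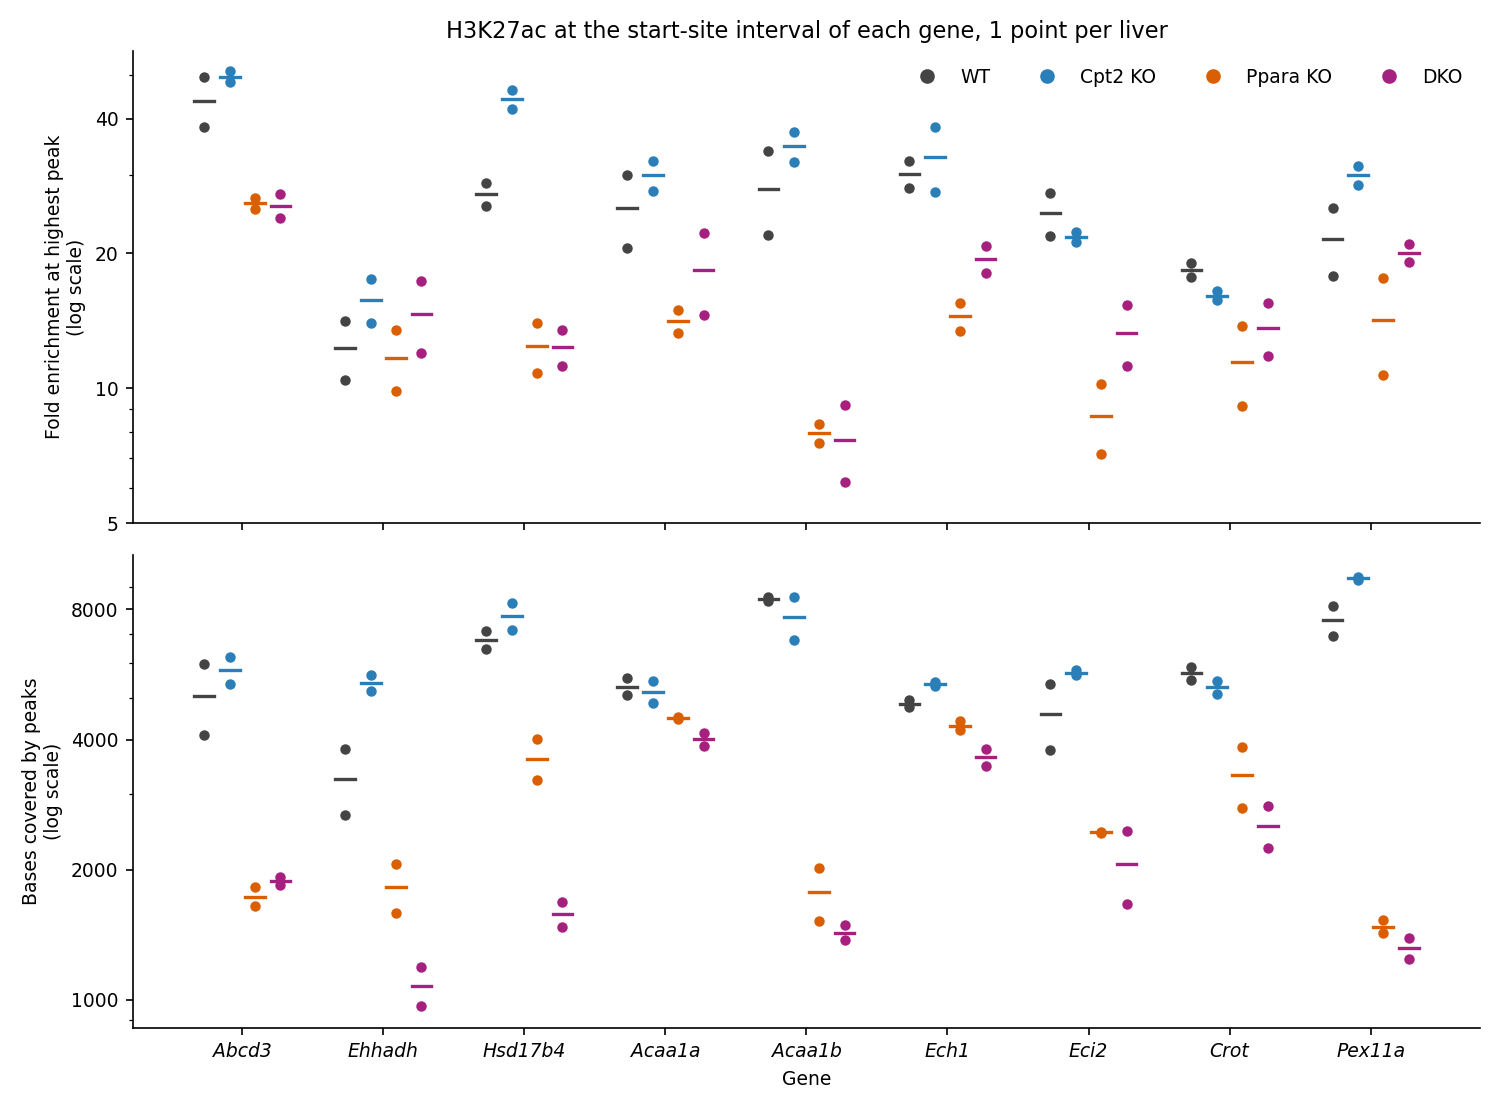
H3K27ac at the start-site interval of each gene (x axis), as fold enrichment of the highest peak (top, log scale) and as bases covered by peaks (bottom, log scale). Points are the 2 livers of each genotype and bars their mean; Ppara KO and DKO lie below WT and Cpt2 KO in covered bases for all 9 genes, and in fold for 6 of 9.

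Ehhadh and Pex11a show how far width and height parted. At the Ehhadh start, mean fold in Ppara-null livers was 94.0% of that in Ppara-intact livers, yet covered bases were 2682 and 3813 in the WT livers, 5188 and 5639 in the Cpt2 KO livers, 1585 and 2061 in the Ppara KO livers and 966 and 1190 in the DKO livers. In every library but Cpt2 KO replicate 1 the summit lay 103 to 148 bases downstream of the start site, and in that library it lay 330 bases upstream. At Pex11a mean fold was 66.5%, but peaks covered 8147 and 6939 bases in the WT livers, 9368 and 9512 in the Cpt2 KO livers, 1528 and 1428 in the Ppara KO livers and 1246 and 1388 in the DKO livers. A single peak was left in each Ppara-null liver, with its summit 229 to 310 bases downstream of the start, where the summit of the Ppara-intact livers also lay (261 to 316 bases). In Ppara-intact livers peaks ran on through the Pex11a gene body, and beyond the start-site peak none was called in this interval in Ppara-null livers.

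**Figure D3:**
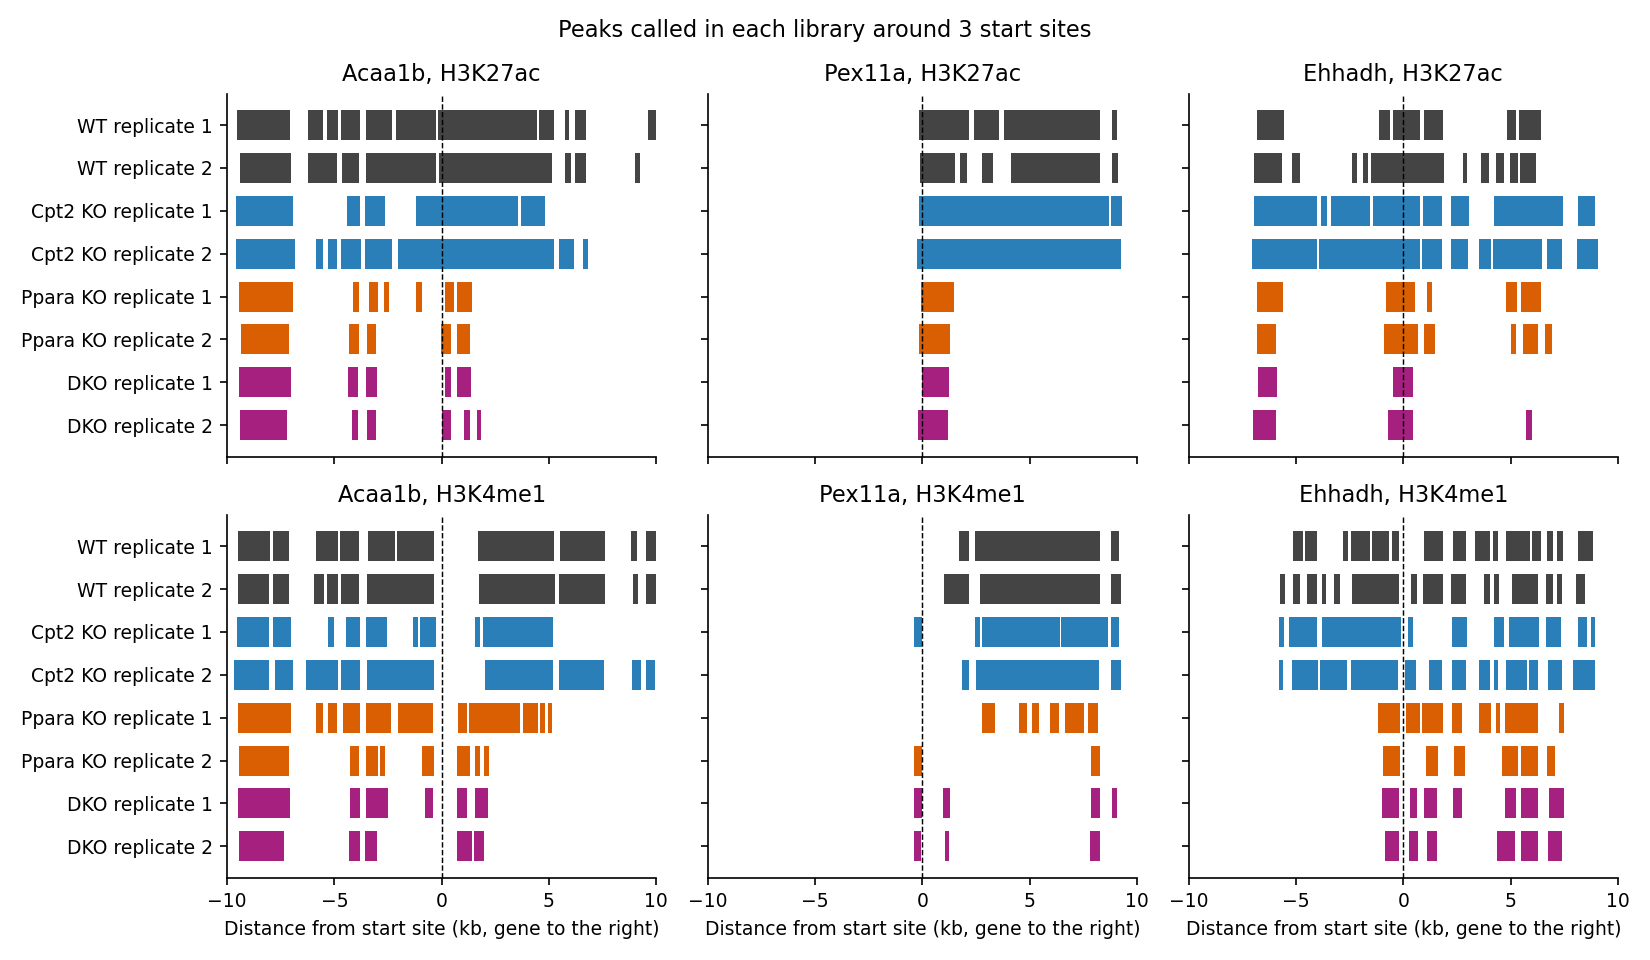
Called peaks (coloured bars) in each of the 8 libraries (y axis) by distance from the start site of Acaa1b, Pex11a and Ehhadh (x axis, kb, gene to the right), H3K27ac above and H3K4me1 below. In Pex11a, 1 peak per Ppara-null library remains in H3K27ac next to the start site, of 1246 to 1528 bases, where Ppara-intact libraries have 6939 to 9512 covered bases.

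At Acaa1b both height and width were lower. Peaks over its start covered 8359 and 8549 bases in the WT livers, 6799 and 8532 in the Cpt2 KO livers, 2021 and 1523 in the Ppara KO livers and 1490 and 1373 in the DKO livers, and the widest remaining peak of a Ppara-null liver was 686 bases. At Ech1 and Acaa1a height differed more than width, with mean fold at 53.8% and 59.0% but covered bases at 77.8% and 81.1%. The genes therefore differed in whether height or covered length was the lower share.

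Summed over the whole gene window (the body and 10000 bases to each side), H3K27ac covered bases were again separated in 9 of 9 genes with null lower, against 5.62% (null lower) and 4.12% (null higher) of 14430 genes with any H3K27ac. Ppara-null means ran from 16.5% of the Ppara-intact mean at Pex11a to 77.1% at Acaa1a, against a median of 97.7% over those genes. The Eci2 window had the highest mean among Ppara-intact livers, with 16375 and 13267 bases in the WT livers, 17761 and 17762 in the Cpt2 KO livers, 7734 and 7480 in the Ppara KO livers and 5290 and 5455 in the DKO livers. The 9-of-9 count held when only peaks with a −log10 q of at least 10 were used, and within 1000 bases of the genes. Leaving out a library cannot undo a separation, so that setting could not lower the count.

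**Figure D4:**
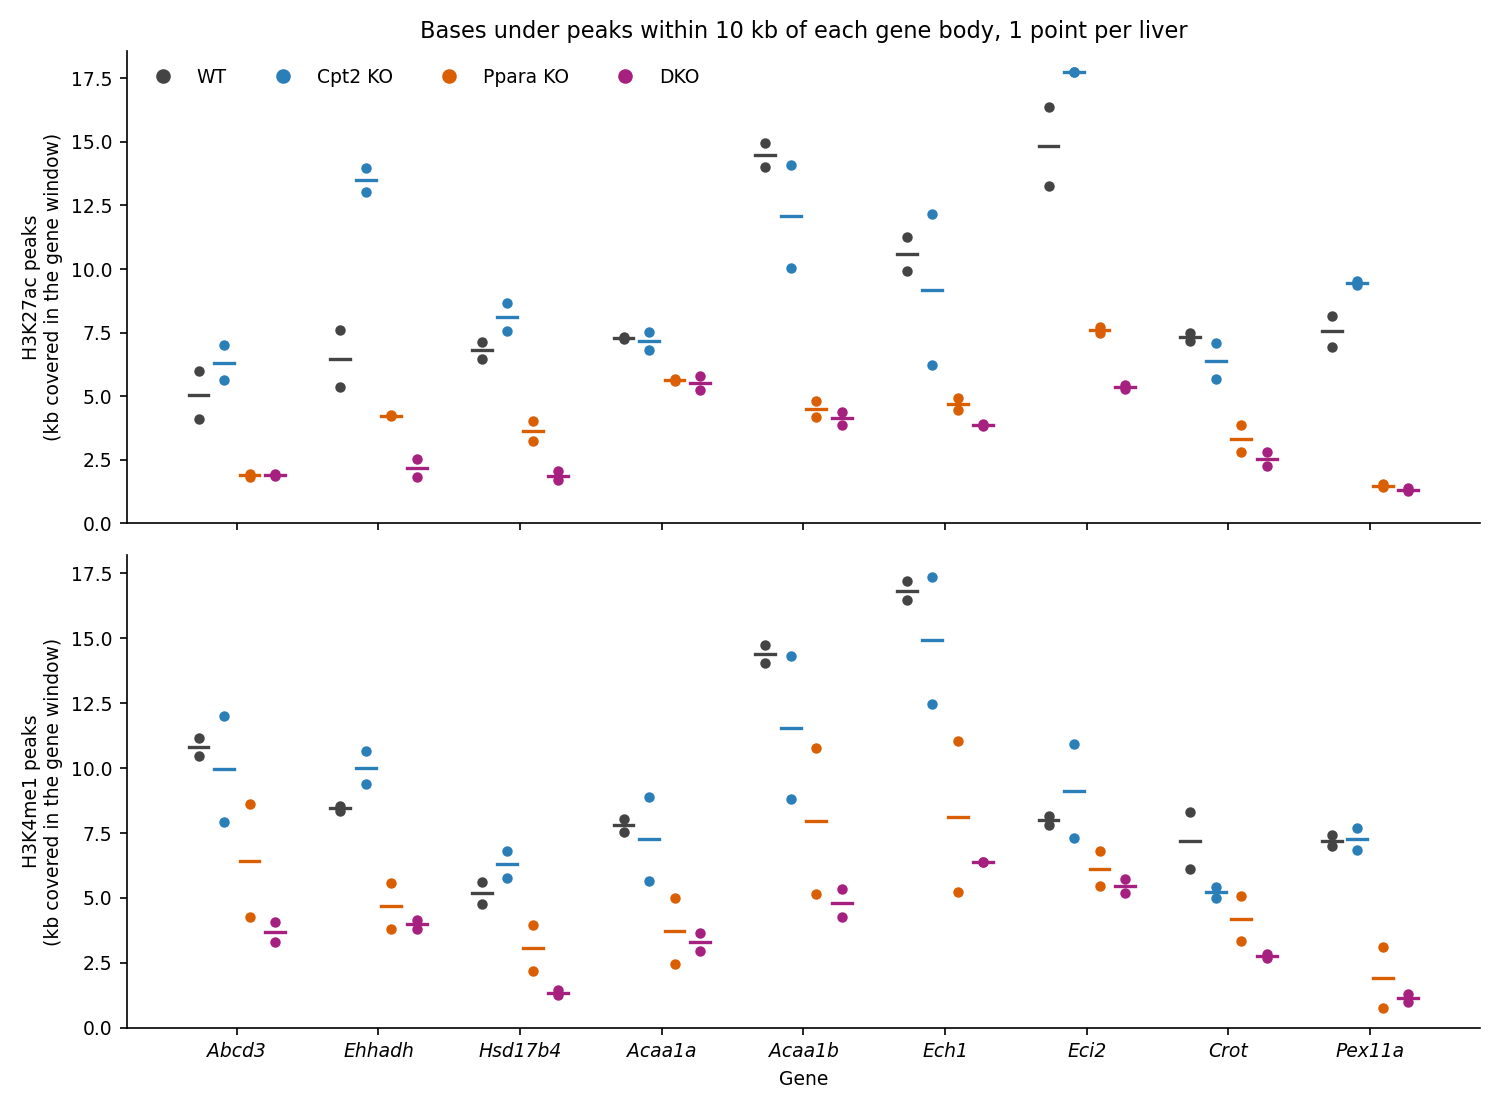
Bases covered by H3K27ac (top) and H3K4me1 (bottom) peaks (y axis, kb) in the window of each gene (x axis), 1 point per liver with bars for the mean of each genotype. Ppara-null livers lie below all Ppara-intact livers for 9 of 9 genes in H3K27ac and for 6 of 9 in H3K4me1.

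Calls were also fewer without Ppara. Of the 57 H3K27ac intervals, 36 were called in at least 1 Ppara-intact and no Ppara-null liver, and 1 the reverse, near Abcd3 (22.2% and 17.8% of all 65776 intervals). Per library 29 to 39 of the 57 were called in Ppara-intact livers and 18 or 19 in Ppara-null livers. Of all intervals, 51.5% to 54.5% were called per Ppara-intact and 48.8% to 59.0% per Ppara-null library. By the stricter rule of at least 3 livers of one side and none of the other, 8 of 26 intervals with enough calls were present only with Ppara and 0 only without it (3.53% and 3.31% of 32307 intervals with enough calls). The 8 lay at 4 genes, 3 each at Acaa1b and Ech1 and 1 each at Ehhadh and Crot. Those of Ech1 at 28833575 to 28834830 and at 28837091 to 28837741 have their middle in the body of Lgals4. Leaving out a Ppara-intact liver makes the rule ask for all 3 others, and the count was then 2 without WT replicate 1, 1 without WT replicate 2 and 1 without Cpt2 KO replicate 2.

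Compared singly with WT, Ppara KO livers had 8 of 16 intervals lower and 0 higher (3.59% and 2.83% of all tested intervals), and DKO livers 10 lower and 0 higher (11.5% and 8.62%). Both share the WT livers. Of the 9 genes, 6 had a lower interval in Ppara KO and 7 in DKO, where Crot also passed at -0.74 (adjusted p = 0.0417). With 2 livers per group these counts rest on single libraries: for Ppara KO it was 1 without Ppara KO replicate 1, 3 without Ppara KO replicate 2 and 1 without WT replicate 2, and for DKO it was 6 without DKO replicate 2. With smallest peak width as a covariate both counts were 0, while the count for Ppara-null against Ppara-intact stayed at 11. That width was 217 and 223 bases in the DKO and 206 and 198 in the WT libraries, so for DKO this setting cannot tell width from genotype.

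H3K4me1 fold did not pass the test at any of the 22 member intervals called in all 8 libraries. For Ppara-null against Ppara-intact livers limma gave 0 adjusted and 5 of 22 unadjusted p-values under 0.05, and over all 19526 intervals 0.0819% were lower and 0.0461% higher. The median log2 difference of the members was -0.30, against -0.01 over all intervals, and 18 of 22 were negative. Folds of the groups did not overlap in 5 of 22 intervals, all lower without Ppara (3.13% of all intervals, and 2.61% the reverse). DKO against WT gave 0 of 22 with 8 unadjusted (0.0358% lower and 0.0973% higher over all intervals), Ppara KO against WT 0 with 4, and Cpt2 KO against WT 0 with 1 (0.0% of all intervals for both). Nearest to the threshold were the strongest interval of Pex11a (79734455 to 79740700, -1.05, SE 0.23) and that of Eci2 (35015559 to 35020888, -0.85, SE 0.19), both at an adjusted p of 0.083. At Pex11a the folds were 14.2 and 6.64 in the WT livers, 13.2 and 13.7 in the Cpt2 KO livers, 5.73 and 5.62 in the Ppara KO livers and 4.50 and 6.45 in the DKO livers, so the groups were narrowly apart. The count of 0 depended on Cpt2 KO replicate 1, since some member intervals passed without it, the Pex11a and Eci2 intervals included. That fit leaves 1 Cpt2 KO library, and its share of passing intervals over all intervals is not reported here. For the other 7 genes the strongest interval differed by -0.44 (Abcd3) to 0.17 (Acaa1a).

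Covered bases of H3K4me1 were separated in 6 of the 9 gene windows with null lower, and in 0 with null higher (3.92% and 3.26% of 14938 genes). Exceptions were Abcd3, Acaa1b and Crot, where Ppara KO replicate 1 reached into the range of the Ppara-intact livers. Means in Ppara-null livers were 21.4% (Pex11a) to 67.8% (Eci2) of those in Ppara-intact livers, where the median gene was at 90.0%. Total H3K4me1 coverage also varied, from 38.8 to 46.0 Mb in 3 of the Ppara-null libraries and 1 Cpt2 KO library to 52.5 to 53.5 Mb in the other 4, and its part in these counts was not tested. Pex11a had 6989 and 7422 bases in the WT livers, 6834 and 7692 in the Cpt2 KO livers, 3095 and 771 in the Ppara KO livers and 1315 and 1009 in the DKO livers. By calls, 19 of 71 H3K4me1 intervals with enough calls were present in at least 3 Ppara-intact livers and in no Ppara-null liver, with 0 the reverse (5.86% and 4.04% of 50031). They lay at 7 of the 9 genes, but some had their middle in the body of a neighbouring gene. These were the only one of Ech1 (in Hnrnpl), the only one of Pex11a (in Plin1), and those of Acaa1b at 119146522 to 119147567 and 119147813 to 119148272 (in Dlec1). The count of 19 was 10 without WT replicate 1, 7 without WT replicate 2 and 8 without Cpt2 KO replicate 2.

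Cpt2 is needed for mitochondrial oxidation of long-chain fatty acids. For Cpt2-null against Cpt2-intact livers 1 of 16 H3K27ac intervals was higher and 0 were lower, against 4.9% and 7.38% of all tested intervals, so the members' count was near the background. The interval was the upper end of the Eci2 body (35025737 to 35027215), at 16.2 and 13.7 in the WT livers, 29.1 and 28.7 in the Cpt2 KO livers, 6.57 and 7.71 in the Ppara KO livers and 12.7 and 10.7 in the DKO livers. Its log2 difference was 0.57 (SE 0.17, adjusted p = 0.047), and without any 1 of 7 of the 8 libraries it no longer passed (adjusted p from 0.0515 to 0.151). With smallest peak width as a covariate it did not pass either (0.41, adjusted p = 0.876). That width was 198 to 210 bases in Cpt2-intact and 217 to 223 in Cpt2-null H3K27ac libraries, so this setting cannot tell width from Cpt2. Within each Ppara state both Cpt2-null livers were higher than both Cpt2-intact ones. Without centring the libraries, 3 intervals were higher, but then the median of all intervals stood at 0.25. Folds before centring did not overlap between the Cpt2 groups in 1 H3K27ac interval of the 16, while at the Eci2 interval they overlapped. That 1 lay outside the Ehhadh body (21791846 to 21794910) and was higher without Cpt2, but did not pass limma (0.53, SE 0.17, adjusted p = 0.0611). Over all intervals 17.8% were separated in that direction and 1.48% in the reverse, on the uncentred scale where the median Cpt2 difference was 0.25. In H3K4me1 it was 1 of 22, within the Eci2 body (34994498 to 34995929), also higher and also short of the threshold (0.72, SE 0.23, adjusted p = 0.434; 1.6% and 1.87% of all intervals). Both intervals were singled out after their values were seen.

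Cpt2 KO against WT gave 0 of 16 intervals past the limma threshold (7.69% lower and 5.82% higher over all intervals) and 5 at an unadjusted p under 0.05. The interaction, the Cpt2 effect in Ppara-null minus that in Ppara-intact livers, also gave 0, with 5 of 16 at an unadjusted p under 0.05, and over all intervals 0.00547% were past the threshold. In H3K4me1 both the Cpt2 comparison and the interaction gave 0 of 22 (0.0% of all intervals in each direction), with 2 and 0 unadjusted p-values under 0.05. By calls, 2 H3K27ac and 2 H3K4me1 intervals were present in at least 3 Cpt2-null and no Cpt2-intact livers, and 0 the reverse (8.48% and 4.7% in H3K27ac, 3.04% and 2.8% in H3K4me1). Covered bases were separated by Cpt2 in 0 of 9 genes for either mark (10.6% of genes lower and 10.4% higher in H3K27ac, 2.15% and 1.32% in H3K4me1). Among Ppara-intact livers Cpt2 KO and WT differed most at Ehhadh. Its window held 5356 and 7593 bases of H3K27ac in the WT livers, 13013 and 13980 in the Cpt2 KO livers, 4224 and 4237 in the Ppara KO livers and 1822 and 2522 in the DKO livers.

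H3K9ac intervals carry positions only, and with 1 library per genotype the comparison of WT with Cpt2 KO has no replicate check. Of 84 member intervals, 52 were present in both livers, 10 only in WT and 22 only in Cpt2 KO, against 55.2%, 20.8% and 23.9% of all 46568 intervals. In all, 39287 intervals were called in WT and 41122 in Cpt2 KO. They covered 74233 bases around the 9 genes in WT and 86725 in Cpt2 KO, out of 37.5 Mb and 37.4 Mb genome-wide. All 8 start sites in the promoter table lay under H3K9ac in both livers. The widest difference was at Acaa1b, with 8287 bases in WT and 13125 in Cpt2 KO, followed by Pex11a with 6966 and 9980 and Ehhadh with 3848 and 6631. Abcd3 and Crot had less in Cpt2 KO, at 8732 and 7358 bases and at 7570 and 6272 bases.

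Other genes of fatty acid oxidation and peroxisomes were taken from 3 lists drawn up by pathway. Each list had more lower than higher H3K27ac intervals past the threshold without Ppara. Of 20 other peroxisomal oxidation and import genes, 18 had a tested interval. Of these, 5 genes had a lower interval and 1 a higher one without Ppara, and the median log2 difference over their 48 intervals was -0.11. By interval, 6 of the 48 were lower and 1 higher, against 4.15% and 3.19% of all tested intervals. Slc27a2, a very-long-chain acyl-CoA synthetase, was lower, at -1.85 (SE 0.23, adjusted p = 0.000708) at its interval of lowest p, from 9.38 and 10.3 in the WT livers and 20.3 and 26.3 in the Cpt2 KO livers to 3.23 and 4.67 in the Ppara KO livers and 6.12 and 3.60 in the DKO livers. Its strongest interval was at -0.83. Acot4, a thioesterase, Acsl1, an acyl-CoA synthetase, and Scp2, the sterol carrier thiolase, passed at their strongest interval, at -0.96, -0.53 and 0.54. Nudt7, which degrades CoA, and Crat, the carnitine acetyltransferase, passed only at another interval. For Nudt7 that was at -1.05, while its strongest interval was at 0.11 (adjusted p = 0.745). For Crat it was at -0.82 with its middle in Dolpp1, while the strongest was at 0.29 (adjusted p = 0.217).

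Of 17 peroxisome assembly genes, 4 had a lower interval and 0 a higher one, with a median of -0.25 over 32 intervals. By interval, 4 of the 32 were lower and 0 higher, against 4.15% and 3.19% of all tested intervals. Genes with a lower interval included Pex14, a docking protein of the import machinery, at -1.45, Pex26 at -0.86 and Pxmp4 at -0.81, each at its interval of lowest p. Their strongest intervals did not pass, at -0.51, 0.12 and -0.02. Among 14 mitochondrial β-oxidation genes, 13 were tested, 4 had a lower interval (Decr1 at -1.36, Acads at -1.31, Eci1 at -0.98 and Acadvl at -0.96) and 1 a higher one (Acadm at 0.81, where its strongest interval was at -0.03), with a median of -0.13 over 19 intervals. Of these 19, 4 were lower and 1 higher, against the same shares of all tested intervals.

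By H3K27ac covered bases, Ppara-null livers were lower without overlap in 10 of 20 other peroxisomal, 6 of 17 assembly and 8 of 14 mitochondrial genes, and higher in 0 of each. Over all genes with the mark, 5.62% were lower and 4.12% higher in this way. In H3K4me1 they were lower in 4 of 20, 1 of 17 and 9 of 14, and higher in 0, 0 and 1. The shares over all genes with H3K4me1 were 3.92% and 3.26%. Median ratios of Ppara-null to Ppara-intact covered bases in H3K27ac were 72.9%, 72.2% and 55.2% in these lists and 36.9% in the 9 genes. The difference between lists was not tested.

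Most like the Acaa1b start-site interval in its H3K27ac pattern over the 8 libraries were intervals of Vwa8 (Pearson r = 0.988), Dgkd (0.983), Aldh3a2 (0.978), Zfp395 (0.978) and Aldh1a1 (0.975), each over 8 libraries. In all, 147 of 18281 intervals had r above 0.9 with it. Aldh3a2 encodes a fatty aldehyde dehydrogenase and Aldh1a1 a retinaldehyde dehydrogenase. Zfp395 had the largest Ppara difference among the 5, at -1.71 (SE 0.16), and Vwa8 the smallest, at -0.75 (SE 0.12). Within the 9 genes, Hsd17b4 (r = 0.975) and Abcd3 (0.973) followed Acaa1b most closely, and the start interval of Ehhadh least among start intervals (0.337). These values describe 8 libraries that share the Ppara split.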

How the data were processed

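H3K27ac and H3K4me1 ChIP-seq of 8 livers each, and H3K9ac of 2, entered as deposited files. Reads were aligned with BWA and peaks called with MACS2 2.1.0 on mm10, per the submitters' processing notes, with 1 peak list per library. H3K27ac and H3K4me1 share 1 pooled input, per the labels. One list, from H3K27ac Ppara KO replicate 2, has a different build word in its peak names and was treated as mm10. Fold enrichment, a ratio of pileup at the summit over local background, was deposited by the authors, as were −log10 p-values and −log10 q-values per peak. Consensus intervals were deposited as positions only, and how they were merged is not given in the sources used here. The tables give gene bodies but no exons, so intervals are placed by gene body and start site only. The pooled inputs were not used here.

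Members and gene lists were chosen with earlier results of these data known. Samples were grouped by their titles. An interval's value in a library was the highest fold of the peaks overlapping it by at least 1 base, with no value where none did, so an interval tested in all 8 libraries had to be called in each. Of the member intervals, 16 of 57 (H3K27ac) and 22 of 109 (H3K4me1) met this. Log2 folds were centred on each library's median over the tested intervals and fitted with limma 3.58.1 in R 4.3.3 (lmFit, eBayes with trend), with 4 genotype means in 1 fit per mark, two-sided, Benjamini-Hochberg adjusted over all tested intervals. Fold changes are on the log2 scale of enrichment, not of DNA amount, and were compared only between libraries of 1 mark. Covered bases and overlaps were computed with bedtools 2.31.1. Separation means that all values of one group lie below all of the other and is a count, not a test. Promoter windows came from RefSeq (GRCm38.p6). For each gene and mark the text names the interval with the highest mean log2 fold and every interval past the threshold in any of 6 contrasts, and 5 genes with the most similar pattern. Start-site intervals and covered bases inside them were added after the data were seen. The model was tested on simulated data. Alternatives changed the centring, the peak threshold (−log10 q of 10), the overlap (50% of the shorter), the window (1000 bases), a peak-width covariate, filled-in uncalled libraries, a replicate block and each library left out. Values of some genes in the pathway lists are not reported here.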

Additional observations from a re-analysis of the deposited data

Results flagged for a closer look

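In 4 gene windows the Cpt2 deletion went with more H3K27ac covered bases in every liver that kept Ppara and with fewer in every liver that lacked it. Cpt2 KO minus WT and DKO minus Ppara KO were 7022 and -2058.5 bases at Ehhadh, 1303 and -1740 at Hsd17b4, 2940.5 and -2234.5 at Eci2, and 1897 and -161 at Pex11a. The same opposite directions appeared in H3K4me1 at Hsd17b4, at 1109.5 and -1736 bases. At Pex11a the nearest livers without Ppara were close, at 1388 bases (DKO) and 1428 bases (Ppara KO) in H3K27ac. Over all genes with the mark, 2.26% of windows in H3K27ac and 0.837% in H3K4me1 had this pattern. The reverse pattern was found in 3.22% and 0.803%. In fold, the upstream H3K27ac interval of Acaa1b at 119160872 to 119161792 had differences of 3.74 and -1.71 in the same sense as the 4 windows. That pattern was found in 1.47% of all tested intervals and its reverse in 4.28%. The interaction at this Acaa1b interval did not pass limma (-0.98, SE 0.40, adjusted p = 0.268). The differences in covered bases between Ppara states were not tested, and each direction rests on 2 livers against 2.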

How the results depend on the processing

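Replicate numbers were checked for pairing: same-numbered libraries of 2 genotypes had deviations from the group mean that correlated by -0.49 (Cpt2 KO with Ppara KO in H3K4me1) to 0.17, above 0.1 in 3 of 12 pairs. As not all were above 0.1, the numbers were not taken to pair the samples. With the replicate block, 12 H3K27ac intervals passed for Ppara (11 without it; Pex11a then had an adjusted p of 0.0497), and the other counts were unchanged. Uncalled libraries were also filled with the lowest fold of their list, which raised the tested H3K27ac intervals to 40. An interval called only in Ppara-intact livers is then lower without Ppara by construction. The filled counts are therefore no separate support, and their share over all filled intervals is not reported here. Past the threshold were 24 for Ppara (all lower), 11 for Cpt2 (5 lower, 6 higher) and 9 for the interaction (5 lower, 4 higher). Against WT, the filled counts were 14 for Ppara KO (all lower), 11 for Cpt2 KO (5 lower, 6 higher) and 20 for DKO (19 lower, 1 higher). Without centring, 3 passed for Cpt2, 4 for Cpt2 KO and 6 for DKO against WT. Quantile normalization gave 1 for Cpt2 KO against WT. Peak width as a covariate gave 0 for Cpt2, 0 for Ppara KO and 0 for DKO against WT. Smallest peak width did not overlap between Cpt2-intact and Cpt2-null libraries, so for Cpt2 and for DKO this setting cannot tell width from genotype. The cause of the count for Ppara KO was not tested. Calls by the rule of 3 livers against none were, for Ppara in H3K27ac, 5 with a −log10 q of at least 10, 1 with 4 of 4 livers and 5 within 1000 bases, and in H3K4me1 6 with 4 of 4 livers. For Cpt2 they were 1, 1 and 0 in H3K27ac and 1, 1 and 0 in H3K4me1 under the same 3 settings.

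Leaving out each library gave H3K27ac counts of 10 to 11 for Ppara, 0 to 1 for Cpt2, 0 to 0 for the interaction, 1 to 8 for Ppara KO, 0 to 2 for Cpt2 KO and 6 to 10 for DKO against WT. H3K4me1 counts were 0 to 3 for Ppara, 0 to 1 for Cpt2, and 0 to 0 for the others. Call counts ran from 1 to 8 (Ppara) and 1 to 2 (Cpt2) in H3K27ac, and from 7 to 28 and 1 to 6 in H3K4me1. Covered bases stayed separated in 9 to 9 genes for Ppara in H3K27ac, in windows and in start-site intervals, and in 6 to 9 in H3K4me1, with 0 to 0 for Cpt2 in either mark. Start-site folds were separated in 6 to 7. Leaving out a library cannot undo a separation, so these separation counts could only stay or rise and are no check on them. H3K4me1 differences near 0 that did not pass changed sign at Hsd17b4 (0.024 with the width covariate), and with a library left out they ran from -0.141 to 0.078 at Hsd17b4, from -0.018 to 0.362 at Acaa1a and from -0.318 to 0.176 at Acaa1b. None of the 15 named H3K27ac Ppara differences changed sign under the alternatives run. Depth in reads is unknown, so an uncalled peak may be a weak one.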
